A study of Mus musculus with 6 samples.

Results

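The mitochondrial fusion and fission genes are a set of 10 genes taken by symbol from the deposited count table, namely Mfn1, Mfn2, Opa1, Oma1, Dnm1l, Mff, Fis1, Mief1, Mief2 and Opa3. All 10 were found among the 46095 rows of the table, and all 10 were among the 14757 genes tested after the filter on low counts. The rule that names them uses no measured value, but the set was proposed with earlier results of these data known. RNA had been sequenced from brown adipocytes made in culture from cells of the stromal vascular fraction, the mixed non-adipocyte cells of a digested fat pad, of the brown adipose tissue of C57BL/6 mice aged 5 weeks. Both groups were differentiated for 8 days, first in insulin, dexamethasone, rosiglitazone, triiodothyronine and IBMX and then in insulin, rosiglitazone and triiodothyronine alone. There were 3 control libraries and 3 libraries of the genotype U-IRX3ov, whose name gives overexpression of the homeobox factor IRX3. The titles of its samples read KI. What the construct is, which promoter drives it and in which cells is not stated in the labels, nor whether libraries of a group came from separate mice or cultures. Every p-value therefore judges the difference between the groups by the spread among these 6 libraries, and the spread within a group may be technical.

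Mitochondria join and divide all the time. Fusion is carried out by large GTPases, the mitofusins on the outer membrane and OPA1 on the inner membrane, and fission by the GTPase DRP1, the product of Dnm1l, which is recruited from the cytosol by receptors on the outer membrane and then pinches the organelle. In brown adipocytes adrenergic stimulation is known to fragment the mitochondrial network, and OPA1 also shapes the cristae, the inner folds that hold the respiratory chain.

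Libraries held 20094799 to 26755870 counts, of which the 10 genes took 18070 to 23665. The gene named in the genotype, Irx3, had 4.78, 5.42 and 5.12 CPM (counts scaled to the same library total, with TMM factors) in the control libraries and 6.27, 6.31 and 5.89 CPM in the U-IRX3ov libraries, a difference that did not pass the test (log2 fold change 0.27 ± 0.13 SE, adjusted p = 0.112). It is not stated whether transcripts of the construct count towards it. The cells carried adipocyte markers in both groups, with 8 of 8 higher in U-IRX3ov, and the 7 skeletal muscle markers summed to at most 27.4 CPM in any library. Of 10 brown markers 8 were higher, Ucp1 and Cidea by the most, and 2, Zic1 and Lhx8, were lower (log2 fold changes of -0.88 and -0.69), and their sum was 306 to 317 CPM in control and 765 to 863 CPM in U-IRX3ov libraries.

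Most of the fusion and fission machinery was modestly higher in U-IRX3ov cells. Of the 10 genes 8 rose, led by the fusion GTPases Opa1 and Mfn1, by 33.3% and 30.4%, and 1, the protease gene Oma1, fell by 18.4%. Fis1 lay lower in all 3 U-IRX3ov libraries but did not pass the threshold of 0.05 on the adjusted p. The test was edgeR's quasi-likelihood F test with Benjamini-Hochberg adjustment over all genes. Across all genes tested 41.3% were called, 20.2% higher and 21.1% lower, so that calls were common in this comparison. The CPM values of the groups did not overlap for any of the 10 genes, against 50.8% of all genes tested. Control levels ran from the 39.9th percentile of all genes tested (Oma1) to the 91.5th (Opa1). Most of the 10 were well expressed, and the shares over all genes are not matched for level. The median log2 fold change of the 10 genes was 0.25, beside a median of 0.00 and quartiles of -0.24 and 0.19 over all genes tested. The calls of Opa1, Mfn1, Mfn2, Dnm1l, Mff and Mief1 were made under all 12 alternative settings. Those of Mief2, Oma1 and Opa3 were not, as given beside each gene.

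**Figure D1:**
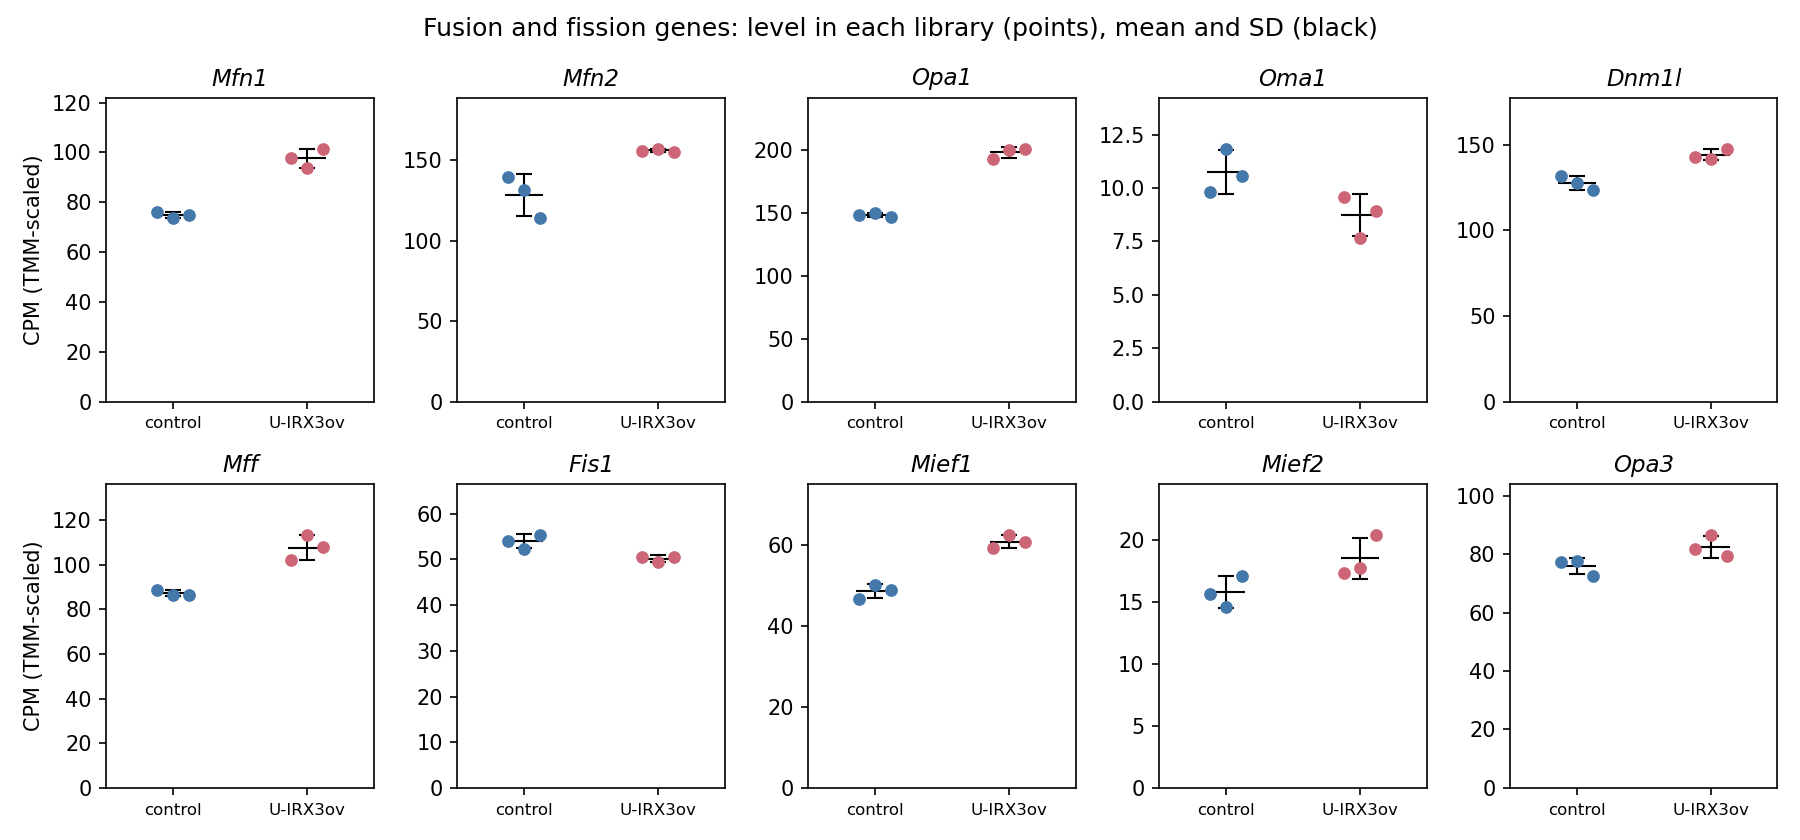
Level of each of the 10 genes in TMM-scaled CPM, with 1 point per library, 3 control and 3 U-IRX3ov, and the group mean ± SD in black, on axes that start at 0. The groups do not overlap for any gene, and only Oma1 and Fis1 are lower in U-IRX3ov, with means of 8.72 against 10.7 CPM and of 50.2 against 53.9 CPM.

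The promoters of the genes were searched for the sites of factors that control nuclear genes of mitochondria. The windows came from RefSeq (GRCm38.p6), ran from 250 bases before to 50 bases after each annotated start, and numbered 15 for the 10 genes, all of which matched by symbol. Motifs were sought on both strands, namely GCATGCGC, the core of the NRF1 site, CCGGAAG, the core of the GABPA site, and TCAAGGTCA, the site of the estrogen-related receptors (ERR), with its core AAGGTCA, which lies within it. The NRF1 core occurred in 1 of the 10 genes, Opa1, against 3.05% of all 27025 genes with a window. In Opa1 it occurred on both strands in overlapping positions, from base -59 to base -50 before the start. The GABPA core occurred in 4 of the 10 genes, Mfn1, Dnm1l, Fis1 and Mief1, against 9.93% of all genes. In Dnm1l the match lay after the start. Neither ERR motif occurred in any of the 10, against 0.466% of all genes for the whole site and 5.38% for its core. The windows of the 10 genes were richer in GC than all windows, with a median of 62.3% against 53% and a median of 22 CpG against 7, and the shares over all genes are not matched for this or for the number of windows per gene. These are matches of letters only, and no excess is read from them. Shown are up to 150 bases before the RefSeq start, with the matched letters in capitals, for Opa1, Mfn1 and Mief1, which rose, and for Fis1, which did not. Opa1 is at chr16:29579184-29579333, Mfn1 at chr3:32529332-32529481, Mief1 at chr15:80233930-80234034 and Fis1 at chr5:136953125-136953274, all on the plus strand, and that of Mief1 stops short of its RefSeq start. The GENCODE start of Mief1, at 80234018, lies within the printed stretch, and the match straddles it.
Opa1: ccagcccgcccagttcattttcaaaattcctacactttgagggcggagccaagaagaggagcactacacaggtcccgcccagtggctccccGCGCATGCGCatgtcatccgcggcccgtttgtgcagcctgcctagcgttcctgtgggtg
Mfn1: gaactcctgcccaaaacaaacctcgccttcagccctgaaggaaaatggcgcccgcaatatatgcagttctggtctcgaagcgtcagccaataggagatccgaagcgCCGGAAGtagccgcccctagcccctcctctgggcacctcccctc
Mief1: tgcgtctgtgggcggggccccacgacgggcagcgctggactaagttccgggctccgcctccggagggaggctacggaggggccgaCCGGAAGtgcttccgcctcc
Fis1: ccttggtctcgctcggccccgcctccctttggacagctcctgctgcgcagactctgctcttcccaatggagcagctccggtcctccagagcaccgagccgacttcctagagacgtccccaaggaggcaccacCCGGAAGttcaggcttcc

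Opa1 encodes the inner membrane fusion GTPase. It had 149, 149.8 and 147 CPM in control libraries 1, 2 and 3, from 4069, 3921 and 3960 counts, and 193, 200.2 and 201 CPM in U-IRX3ov libraries 1, 2 and 3, from 5016, 3900 and 3891 counts. The lowest U-IRX3ov library lay well above the highest control library, and the control libraries lay within 2.82 CPM of each other. Opa1 rose 1.33-fold (log2 fold change 0.42 ± 0.04 SE, 95% interval of the fold 1.26 to 1.41, adjusted p = 4.07e-10), the largest rise and the smallest p of the 10 genes. It lies on chromosome 16 of mm10 at 29579334 to 29654884 on the plus strand, with 8 annotated transcripts and no overlapping gene. The counts are per gene and do not tell its transcripts apart, nor the long and short forms of its protein.

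Oma1 encodes an inner membrane protease that cuts OPA1 when the organelle is stressed, which stops fusion. It was the least abundant of the 10 genes, with 9.82, 11.8 and 10.5 CPM in the control libraries (269, 310 and 284 counts) and 9.58, 7.65 and 8.94 CPM in the U-IRX3ov libraries (249, 149 and 173 counts). The groups were close, the highest U-IRX3ov value lying 0.247 CPM under the lowest control value. The log2 fold change was -0.29 ± 0.11 (interval of the fold 0.694 to 0.960, adjusted p = 0.0401). This call was lost under DESeq2 (adjusted p = 0.0871) and limma-voom (0.0578), and without control library 2 (0.191), control library 3 (0.0561), U-IRX3ov library 2 (0.190) or U-IRX3ov library 3 (0.0680). Yme1l1, named after its values were seen, is the other protease known to cut OPA1, and had means of 183 CPM (control) and 185 CPM (U-IRX3ov), which did not pass the test (log2 fold change 0.01 ± 0.04, adjusted p = 0.828). Oma1 lies on chromosome 4 at 103313812 to 103371868 on the plus strand, with no overlapping gene.

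Mfn1 and Mfn2 encode the mitofusins, which tether and fuse outer membranes. MFN2 is also known for its place at contacts between mitochondria and the endoplasmic reticulum. Mfn1 had 76.2, 73.8 and 74.8 CPM in the control libraries and 97.6, 93.8 and 102 CPM in the U-IRX3ov libraries. It rose 1.30-fold (log2 0.38 ± 0.04, interval of the fold 1.22 to 1.39, adjusted p = 3.99e-08). Mfn2 had 140.0, 132 and 114 CPM in the control libraries and 156, 157 and 155 CPM in the U-IRX3ov libraries. The U-IRX3ov values were nearly equal, while the control values spread widely, with a coefficient of variation (SD over mean) of 10.1% against 0.610%. Mfn2 rose 1.21-fold (log2 0.28 ± 0.06, interval of the fold 1.11 to 1.32, adjusted p = 0.00121), and its log2 fold change ran from 0.20 to 0.35 when 1 library was left out. The low end came without control library 3, which had the lowest value, and the high end without control library 1. The highest control value of Mfn2, 140.0 CPM in library 1, was still under every U-IRX3ov value. Mfn1 lies on chromosome 3 at 32529465 to 32579239 (plus strand) and Mfn2 on chromosome 4 at 147873599 to 147904704 (minus strand), where a processed pseudogene lies opposite an intron.

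Dnm1l encodes DRP1, the GTPase that divides mitochondria and peroxisomes. Its levels were 131, 128 and 123 CPM in the control libraries and 143, 142 and 148 CPM in the U-IRX3ov libraries. It rose 1.13-fold (log2 0.18 ± 0.04, interval of the fold 1.07 to 1.19, adjusted p = 6.73e-04), where the 3 fusion GTPase genes rose 1.21-fold to 1.33-fold. The interval of Mfn2, 1.11 to 1.32, overlapped that of Dnm1l. The genes of the DRP1 receptors Mff and Mief1 rose 1.23-fold and 1.25-fold, more than Mfn2, so the rises do not divide into fusion and fission. In the same libraries the count of Opa1 over that of Dnm1l was 1.13, 1.17 and 1.19 in control and 1.35, 1.41 and 1.36 in U-IRX3ov, without overlap. Dnm1l lies on chromosome 16 at 16312230 to 16358959 on the minus strand. An annotated antisense gene, Gm49521, shares 243 of its 5203 exon bases, and as no source says whether strand was used in counting, reads there cannot be assigned to either gene.

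Mff and Mief1, genes of receptors that bring DRP1 to the outer membrane, both rose. Mff, encoding a receptor for DRP1 on mitochondria and peroxisomes, had 88.7, 86.48 and 86.47 CPM in the control libraries and 102, 113 and 108 CPM in the U-IRX3ov libraries. It rose 1.23-fold (log2 0.30 ± 0.04, interval of the fold 1.16 to 1.31, adjusted p = 2.04e-06). Mief1, which encodes the adaptor MiD51, had 46.7, 50.2 and 49.0 CPM in the control libraries and 59.4, 62.6 and 60.8 CPM in the U-IRX3ov libraries. It rose 1.25-fold (log2 0.32 ± 0.05, interval of the fold 1.16 to 1.35, adjusted p = 1.08e-05). For both genes the lowest U-IRX3ov library was at least 9.22 CPM above the highest control library.

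Mief2 encodes MiD49, the partner of MiD51. Its levels were 15.7, 14.6 and 17.1 CPM in the control libraries and 17.4, 17.8 and 20.5 CPM in the U-IRX3ov libraries, groups that lay 0.236 CPM apart. It rose 1.17-fold (log2 0.23 ± 0.09, interval of the fold 1.03 to 1.33, adjusted p = 0.0401). The call was lost under DESeq2 (adjusted p = 0.0752), limma-voom (0.0557) and upper-quartile scaling (0.0589), and without control library 1 (0.0926), control library 2 (0.175), U-IRX3ov library 2 (0.0504) or U-IRX3ov library 3 (0.231).

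Fis1 encodes a small tail-anchored protein of the outer membrane that is known as a fission factor, though its need in mammalian fission is debated. It had 54.1, 52.3 and 55.4 CPM in the control libraries and 50.5, 49.4 and 50.6 CPM in the U-IRX3ov libraries. All 3 U-IRX3ov values lay under all 3 control values, by 1.72 CPM at the nearest. The log2 fold change of -0.10 ± 0.05 did not pass the test (adjusted p = 0.119), with an interval of the fold from 0.864 to 1.00. No alternative setting called it, with adjusted p-values from 0.0730 to 0.264.

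Opa3 encodes a small mitochondrial protein linked to inherited optic atrophy, whose part in shaping the network is less well defined. It had 77.4, 77.7 and 72.6 CPM in the control libraries and 81.8, 86.6 and 79.2 CPM in the U-IRX3ov libraries. Its rise of 8.74% was the smallest of those called (log2 0.12 ± 0.05, adjusted p = 0.0389). The call was lost under DESeq2 (adjusted p = 0.0677), limma-voom (0.0511) and upper-quartile scaling (0.0716), and without control library 1 (0.0543), control library 3 (0.177), U-IRX3ov library 1 (0.0712) or U-IRX3ov library 2 (0.206).

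Mff lies on chromosome 1 at 82724890 to 82752394, Mief1 on chromosome 15 at 80234018 to 80253371, Mief2 on chromosome 11 at 60728398 to 60732951, Fis1 on chromosome 5 at 136953275 to 136966234 and Opa3 on chromosome 7 at 19228334 to 19256543, all on the plus strand of mm10. Mff shares 195 of its 9757 exon bases with C430014B12Rik on the other strand, and Mief1 shares 213 of its 8106 with the protein-coding gene model AC140267.1 on its own strand, so a small part of their counts is uncertain.

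**Figure D2:**
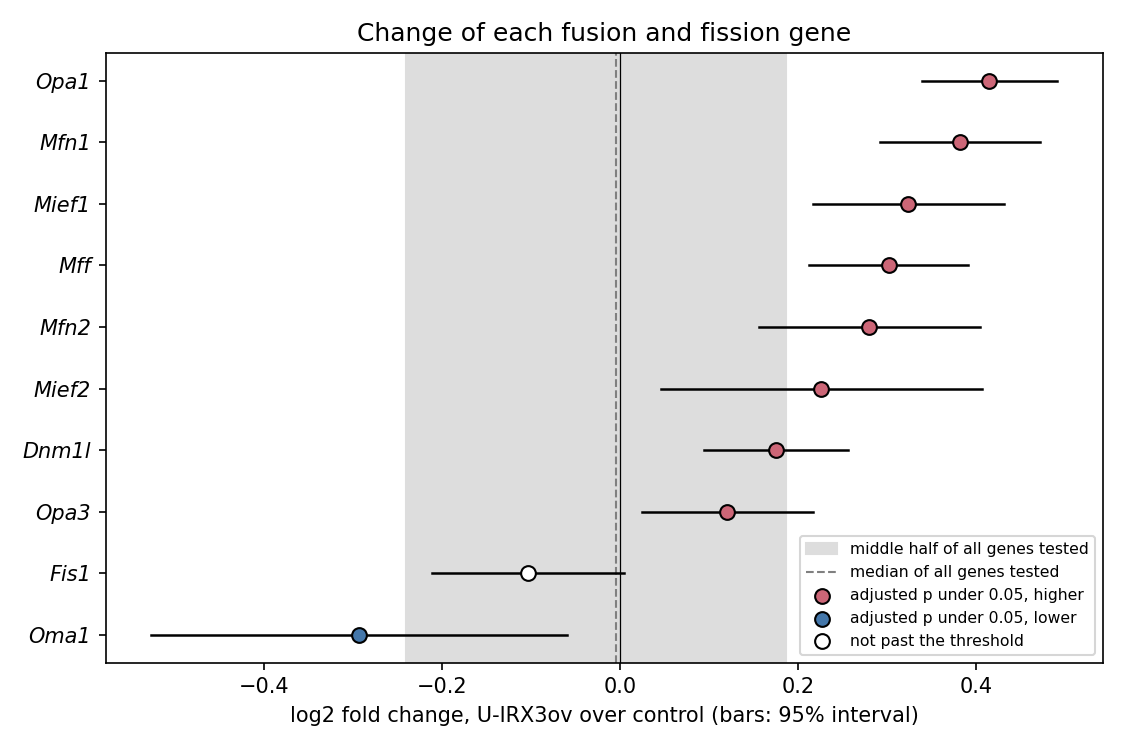
Log2 fold change of U-IRX3ov over control for each of the 10 genes (points) with its 95% interval (bars), ordered by size. The grey band spans the quartiles of all 14757 genes tested, -0.24 to 0.19. Opa1, Mfn1, Mief1 and Mff have intervals wholly above that band, and only the interval of Fis1 reaches across 0.

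Per length the levels differed several-fold between the genes. In control cells Fis1 was highest at 31.5 ± 0.89 CPM per kilobase of annotated exon (SD, n = 3), followed by Mfn2 (24.8 ± 2.50) and Dnm1l (24.5 ± 0.79), whose library values overlapped. Then came Opa1 (18.8 ± 0.18), Opa3 (14.9 ± 0.56), Mfn1 (12.3 ± 0.20) and Mff (8.94 ± 0.13), each apart from its neighbours in every library. Mief1 (6.00 ± 0.22), Mief2 (5.82 ± 0.47) and Oma1 (5.01 ± 0.48) were lowest, each overlapping the next. In U-IRX3ov cells Mfn2 was first at 30.1 ± 0.18 CPM per kilobase and Fis1 second at 29.3 ± 0.39, without overlap, ahead of Dnm1l (27.7 ± 0.62) and Opa1 (25.1 ± 0.57). Opa3 and Mfn1 overlapped there, at 16.2 ± 0.73 and 16.0 ± 0.64, as did Mief1 and Mief2, while Oma1 at 4.07 ± 0.46 was below every other gene. The lengths count every annotated exon, and a gene with long untranslated exons that these cells do not use is placed too low.

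Ratios of counts between genes of the same library need no scaling of libraries, and only their change between the groups is read here, since the genes differ in length. Of 6 ratios compared, 4 did not overlap between the groups, which is not read as a count, since the CPM of single genes already did not overlap in 50.8% of those tested. The count of Opa1 over that of Oma1 was 15.1, 12.6 and 13.9 in control and 20.1, 26.2 and 22.5 in U-IRX3ov libraries, higher by 0.72 on the log2 scale. Opa1 over Dnm1l was higher by 0.24. The ratio of the receptor Mff to Dnm1l was 0.675, 0.677 and 0.701 in control and 0.714, 0.800 and 0.730 in U-IRX3ov libraries, higher by 0.13 on the log2 scale. Fis1 over Dnm1l went the other way, from 0.411, 0.410 and 0.449 to 0.354, 0.349 and 0.343, a log2 difference of -0.28. Each of these 4 gave p = 0.1 in an exact two-sided permutation test, the smallest that 3 against 3 libraries allow, and an adjusted p of 0.15 over the 6 ratios, so none passed 0.05. The 2 ratios within a pair of paralogs overlapped. Mfn2 over Mfn1 was 1.72 ± 0.16 in control and 1.60 ± 0.07 in U-IRX3ov (SD, n = 3, exact p = 0.4, adjusted 0.48), and Mief1 over Mief2 was 3.09 ± 0.31 and 3.30 ± 0.29 (exact p = 0.5, adjusted 0.5).

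**Figure D3:**
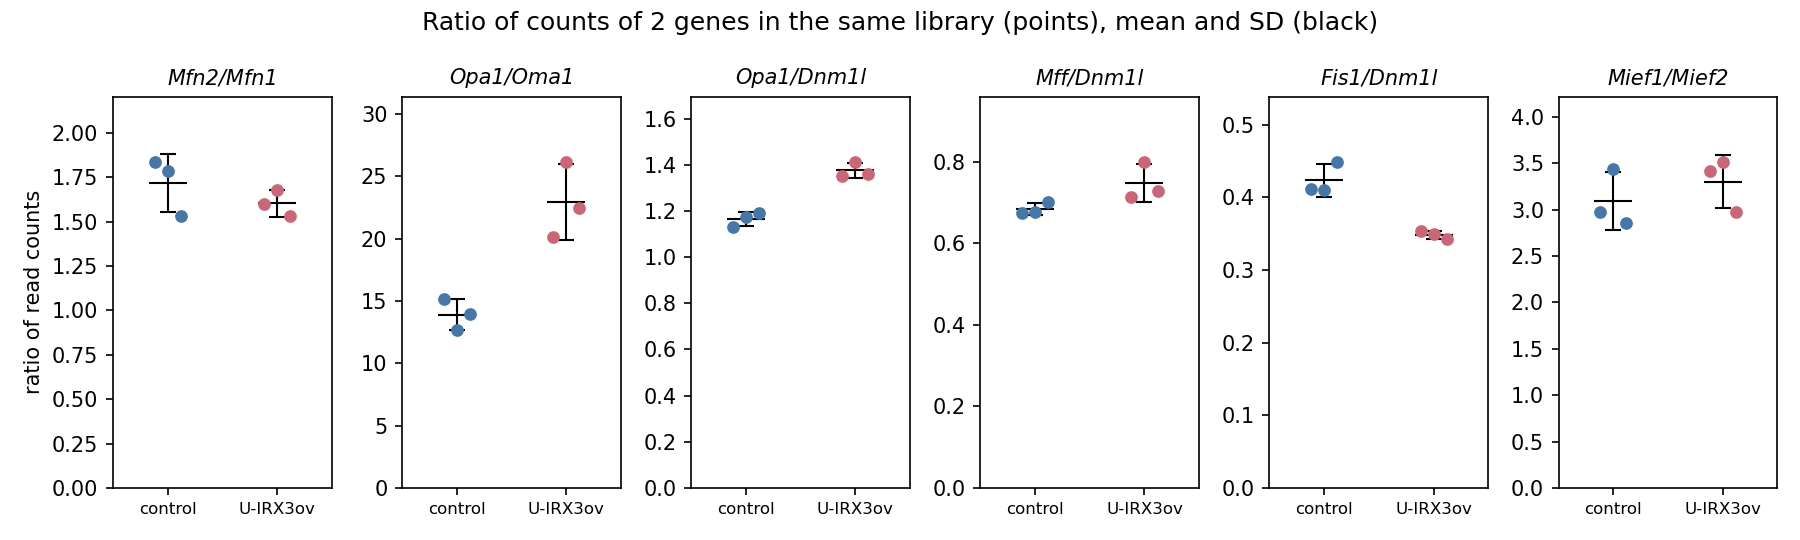
Ratio of the read counts of 2 genes in the same library, with 1 point per library and the group mean ± SD in black, on axes that start at 0. Opa1/Oma1, Opa1/Dnm1l and Mff/Dnm1l are higher and Fis1/Dnm1l is lower in all 3 U-IRX3ov libraries, while Mfn2/Mfn1 and Mief1/Mief2 overlap.

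The fusion and fission genes were also set against the respiratory chain. A list of 38 nuclear-encoded subunits of the respiratory complexes and ATP synthase had 36 higher and 0 lower, with a median log2 fold change of 0.58, and summed to 11186 to 11844 CPM in control and 17028 to 17612 CPM in U-IRX3ov libraries. The 2 others did not pass the test. Counted per 1000 counts of that list, each of the 10 genes was lower in all 3 U-IRX3ov libraries than in all 3 control libraries. So were 80.2% of all genes tested, since the list they are divided by rose, and the median log2 difference over all genes was -0.59, so the direction says nothing particular about the 10 genes. Opa1 had the smallest such difference, with 13.1, 13.4 and 12.4 counts in control and 11.3, 11.7 and 11.4 in U-IRX3ov libraries, a log2 difference of -0.17. Mfn1 differed by -0.21, Mief1 by -0.27, Mff by -0.29 and Mfn2 by -0.31. Larger differences were those of Mief2 (-0.36), Dnm1l (-0.41), Opa3 (-0.47), Fis1 (-0.69) and Oma1 (-0.89). Only Fis1 and Oma1 differed by more than the median over all genes. Dividing by the list shifts all genes by nearly the same amount, so this order repeats that of the log2 fold changes and adds no further result. These differences of mean log2 ratios are given without a test. The mRNAs encoded by the mitochondrial genome had a median log2 fold change of 0.51, with 8 of 13 higher and 0 lower. Of those not called, ATP8, ND3 and ND4L had control means of only 0.659, 0.734 and 0.835 CPM. COX3 and ND6, also not called, had 69.0 and 215 CPM. Of those called, ATP6, whose value is the median, and COX2 had control means of only 7.07 and 29.1 CPM, beside 23564.5 CPM for COX1. Why these levels lie so far apart was not tested.

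**Figure D4:**
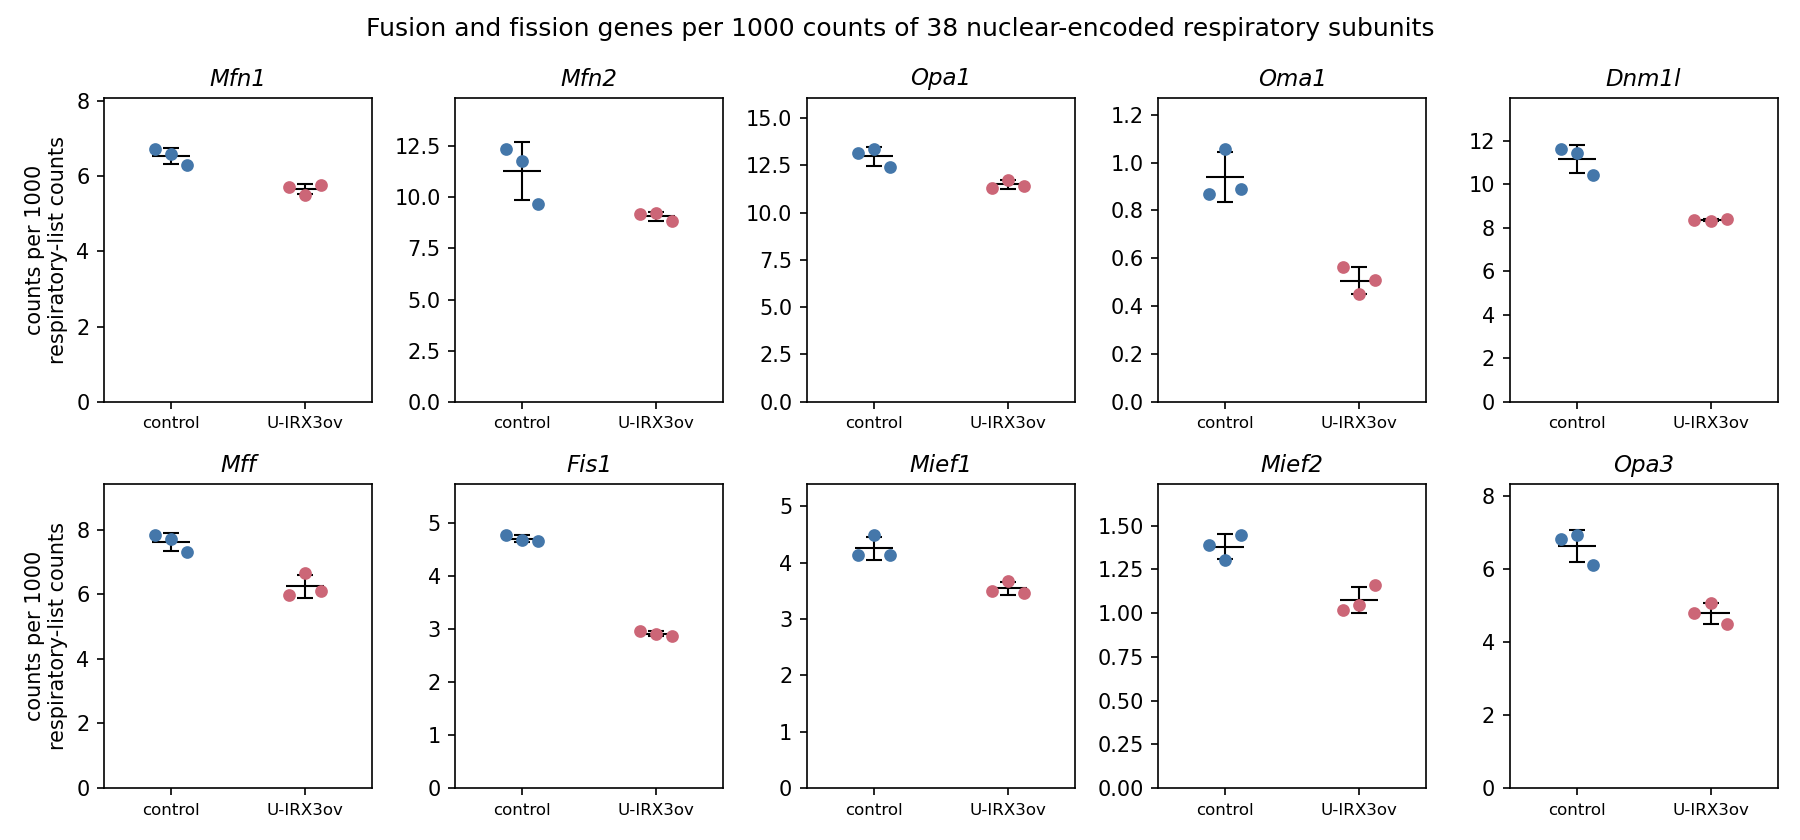
Counts of each of the 10 genes per 1000 counts of 38 nuclear-encoded respiratory subunits in the same library, with 1 point per library and the group mean ± SD in black, on axes that start at 0. All 10 genes, like 80.2% of all genes tested, are lower in U-IRX3ov by this measure, from 13.0 to 11.5 for Opa1 and from 0.939 to 0.506 for Oma1.

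Markers of cell types also moved between the groups. Of 10 fibroblast and preadipocyte markers tested, 9 were lower and 0 higher (median log2 fold change -0.72), and their sum ran from 6622 to 6775 CPM in control and from 3972 to 4298 CPM in U-IRX3ov libraries. All 10 tested leukocyte markers fell (median -1.34, sums of 473 to 580 and of 152 to 227 CPM), with Cd3e and Cd79a, markers of T and B cells, too low to test. Of 7 markers of pericytes and smooth muscle, 6 were lower and 1 higher (median -0.68, sums of 4815 to 5068 and of 2986 to 3317 CPM). Endothelial markers rose in 4 of 7 and fell in 0, at sums of 19.6 to 23.2 and of 39.2 to 44.4 CPM. The 8 adipocyte markers had a median of 0.32 and summed to 20230 to 21447 and to 27774 to 28889 CPM. The part of these shifts in the levels of the fusion and fission genes was not tested. In bulk RNA, fewer cells of a type and less RNA per cell cannot be told apart.

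Other genes of mitochondrial dynamics were taken from 5 lists of known regulators, chosen with earlier results of these data known. Of 55 genes tested 39 were higher and 2 were lower, against 20.2% higher and 21.1% lower of all genes tested. Of 12 genes of the MICOS complex, which bends the inner membrane into crista junctions, and of its SAM partners in the outer membrane, 11 rose and 0 fell, with a median log2 fold change of 0.39. Immt, the core MICOS subunit, rose by 0.60 ± 0.04 from 327 to 498 CPM, Chchd3 by 0.64 ± 0.04 and Samm50, the pore of SAM, by 0.35 ± 0.04 (adjusted p = 8.69e-14, 1.24e-13 and 1.15e-08).

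Regulators of fusion and of OPA1 rose in 8 of 12 and fell in 0 (median 0.34). The prohibitin gene Phb2, whose product is needed to keep long OPA1, rose by 0.47 ± 0.04 on the log2 scale. The AAA protease subunit gene Afg3l2 rose by 0.52 ± 0.04 and Fam73b, which encodes mitoguardin MIGA2, by 0.59 ± 0.04. Of 13 regulators of fission 7 were higher and 1 lower, with a median of 0.11. Akap1, whose product anchors protein kinase A to the outer membrane, where the kinase inhibits DRP1, rose by 0.66 ± 0.05. The outer membrane ubiquitin ligase genes March5 and Mul1 rose by 0.35 ± 0.03 and 0.39 ± 0.05. Mtfp1, named after its value was seen, had the largest rise of that list, 0.77 ± 0.10 from 9.41 to 16.1 CPM. Inf2, a formin that builds actin at fission sites, was the 1 that fell, from 61.3 to 52.6 CPM (log2 -0.22 ± 0.05, adjusted p = 9.50e-04).

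Regulators of mitochondrial biogenesis rose in 5 of 6 and fell in 0. The coactivator genes Ppargc1a and Ppargc1b rose by 1.17 ± 0.08 and 1.08 ± 0.05 on the log2 scale, Esrra by 0.44 ± 0.04, Gabpa by 0.43 ± 0.04 and the mitochondrial transcription factor Tfam by 0.34 ± 0.07. Nrf1, at means of 24.8 (control) and 25.9 CPM (U-IRX3ov), did not pass (0.07 ± 0.07, adjusted p = 0.488).

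**Figure D5:**
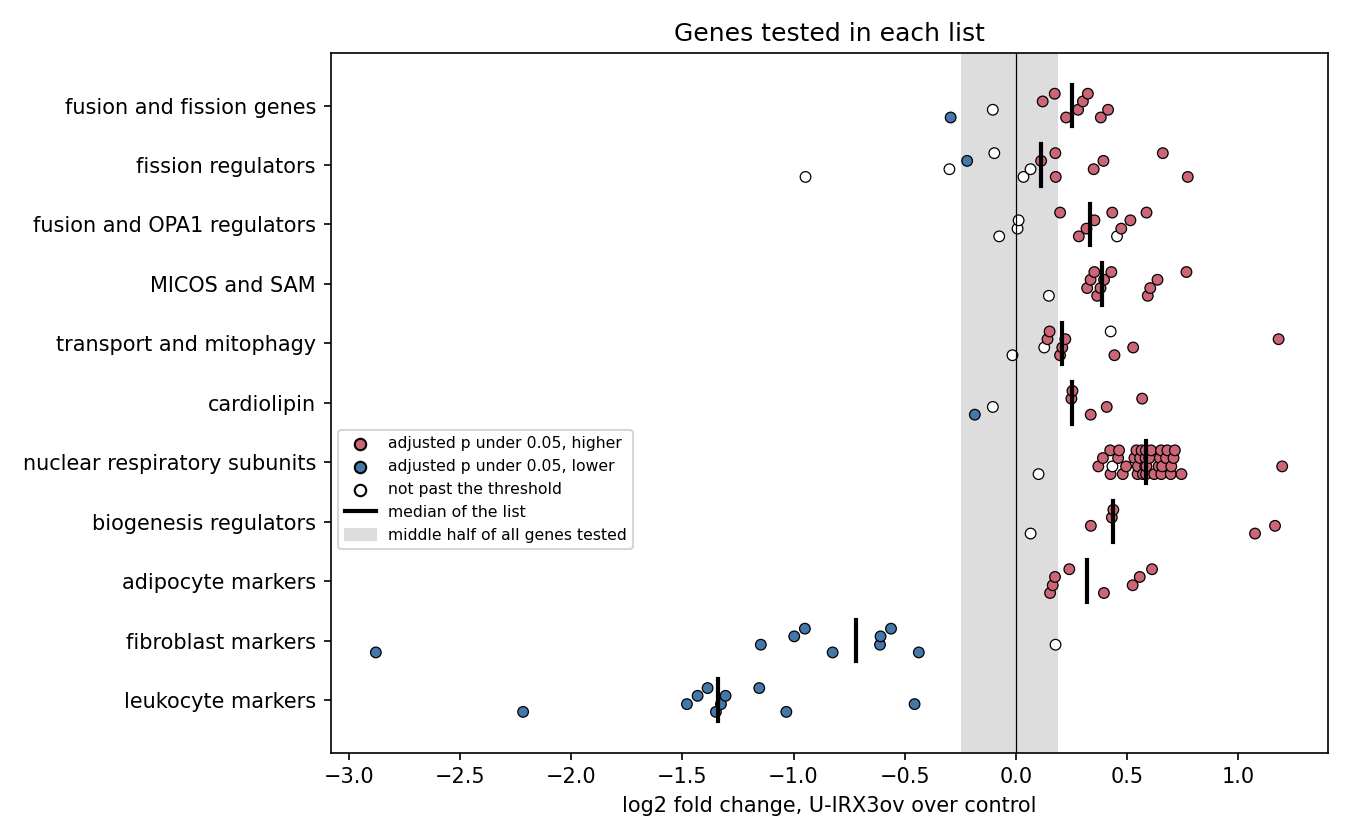
Log2 fold change of U-IRX3ov over control for every tested gene of 11 lists, with the median of each list as a black bar and the quartiles of all 14757 genes tested as a grey band. The fusion and fission genes run from -0.29 to 0.42 with a median of 0.25, under the median of 0.58 of the respiratory subunits, while fibroblast and leukocyte markers lie at -0.72 and -1.34.

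Likeness to other genes was measured as the root mean square distance between log2 CPM profiles, each centred on its own mean over the 6 libraries, among 13061 other genes with at least 1 CPM. The genes nearest to Opa1 were Hibadh, an enzyme of valine breakdown, Adipor2, an adiponectin receptor, and Pigq, at distances of 0.0149, 0.0153 and 0.0159. Mfn1 was the nearest of the other 9 genes at 0.0442, in place 146. Nearest to Mfn2 were Gm10232, Tmem110 and Gkap1, at 0.0303, 0.0331 and 0.0355, and of the other 9 genes Dnm1l at 0.0839, in place 346. All 6 libraries enter each distance, so the shift between the groups is a large part of it.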

How the data were processed

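RNA-seq libraries, 3 per group, were grouped by their labelled genotype. The values are whole-number read counts for each gene symbol, which the authors deposited as a single table. HISAT2 2.0.4 and the build mm10 are named in the submitters' processing notes. Counting program, annotation and strandedness: not given in the sources used here. Both the 10 genes and all lists were chosen with earlier results of these data known.

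Genes low in counts were removed with filterByExpr, libraries were scaled by TMM, and U-IRX3ov was tested against control with edgeR 4.0.16 in R 4.3.3 (robust quasi-likelihood F test, group as the only term, Benjamini-Hochberg adjustment over all 14757 genes, threshold 0.05). The SE is the size of the log2 fold change over the square root of F, and 95% intervals use the test's total degrees of freedom. Where no tool is named, an adjusted p comes from edgeR. The script was tested on simulated data. Lengths and positions are from GENCODE M21 (GRCm38).

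Chi-square over its degrees of freedom was 2.92 to 4.91 between libraries of a group, above counting noise, and 60.1 to 70.5 between groups. Named genes are the 10, up to 3 per direction with the smallest p in each list of regulators, the 6 biogenesis regulators and the 3 genes most like Opa1 and Mfn2. Alternatives were DESeq2 size factors, upper-quartile scaling, no filter on low counts, DESeq2 1.42.0, limma-voom (limma 3.58.1), the replicate number as a block, leaving out each library, and for ratios 1 added to each count.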

Additional observations from a re-analysis of the deposited data

How the results depend on the processing

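Over 12 alternatives the number of genes called ran from 5398 to 6173 against 6098, and the number of the 10 genes called higher from 6 to 8 against 8. The share of higher calls stayed between 45.1% and 49.7%. The number called lower, 1 (Oma1), was 0 with DESeq2 and with limma-voom (1 at an unadjusted p under 0.05 with either tool), and ran from 0 to 1 without 1 library (0 without control library 2 or 3 or U-IRX3ov library 2 or 3). No log2 fold change of the 10 genes and no log2 ratio changed sign under any alternative. The cause of the lost calls of Oma1, Mief2 and Opa3 was not tested. Fits without 1 library had fewer libraries, and Oma1 and Mief2 had the fewest counts of the 10 genes. With the replicate block 6173 genes, 8 higher and 1 lower of the 10, were called. Deviations from the group mean correlated only weakly between same-numbered libraries, with r of 0.0041 to 0.0948, and not every library correlated best with its own number. With 3 libraries per group, these values cannot tell whether same-numbered libraries share an animal or a day.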

Other observations

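Transport adaptors and mitophagy receptors of mitochondria rose in 8 of 11 tested genes and fell in 0, with a median log2 fold change of 0.21. Bnip3l, a mitophagy receptor, rose by 0.44 ± 0.04 from 183 to 248 CPM, Rhot2, a GTPase that links mitochondria to motors, by 0.53 ± 0.05, and the motor adaptor gene Trak2 by 0.22 ± 0.04. Bnip3, named after its value was seen, rose by 1.18 ± 0.10 from 269.8 to 613 CPM, the largest change of that list. Pink1, also named after its value was seen, rose by 0.14 ± 0.05 (adjusted p = 0.0161), and Park2, its partner ligase, was at 1.38 and 1.86 CPM and did not pass (adjusted p = 0.222).

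Genes of cardiolipin, the inner membrane lipid that OPA1 binds, rose in 5 of 7 and fell in 1, with a median of 0.25. The synthase Crls1 rose by 0.57 ± 0.07 from 38.1 to 56.7 CPM, the remodelling enzyme Taz by 0.41 ± 0.08 and the lipid carrier Prelid1 by 0.25 ± 0.04. Pgs1, which acts earlier in the same pathway, fell from 73.6 to 64.8 CPM (log2 -0.18 ± 0.05, adjusted p = 0.00277).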
